A study of Mus musculus with 12 samples.

Results

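Neurexins, neuroligins, leucine-rich repeat transmembrane (Lrrtm) proteins, contactins, contactin-associated proteins, IgLON proteins and protocadherins hold nerve cells together, and their genes were followed across 4 adrenal RNA pools of the mouse. Members were taken by symbol: every gene whose only symbol in the array's annotation begins with Nrxn, Nlgn, Lrrtm, Cntn or Pcdh, together with Negr1, Opcml and Ntm. This gave 46 of the 16244 genes with a probe set of their own. A further minimum, a mean log2 signal of 6 or more in at least 1 pool, left 44 of these among the 15900 genes tested. Pcdh20 and Pcdhb19 stayed under 6 in every pool and entered no test. The alpha and gamma protocadherin clusters had no probe set taken by this rule and were not analysed here.

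All mice were C57Bl/6J males of 21 weeks, and their snap-frozen adrenal glands gave the RNA. The CON pool came from mice that received neither compound. In the ASP pool, aspartame, a dipeptide sweetener, was taken at 46 mg per kg body weight in the drinking water, with exposure beginning before birth through the dam and lasting to the end of the experiment. The CGP pool had only CGP 39551, which competes with glutamate at NMDA receptors. It was given through the dam, at 5 mg per kg of the dam's body weight, from conception to postnatal day 28 and not afterwards. Mice of the ASP+CGP pool had both, the antagonist again only until day 28. RNA from the mice of a group was combined in equal amounts and hybridised to 3 arrays, so each group was 1 pool. Errors and p-values below therefore describe how far 3 hybridisations of one pool differ, and variation from mouse to mouse is not in them.

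Neurexins sit on the presynaptic membrane and bind neuroligins and Lrrtm proteins across the synaptic cleft, and this pairing organises synapses. Contactins are immunoglobulin-domain proteins anchored to the membrane by a lipid and partner with contactin-associated proteins along myelinated axons, where the pairs border the node of Ranvier. IgLON proteins are related lipid-anchored molecules of neurons, and protocadherins form a large branch of the cadherin family that is most diverse in the nervous system. The adrenal medulla consists of chromaffin cells that share an origin with sympathetic neurons and receive nerve endings, whereas the cortex makes steroids and is not nervous tissue.

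In the ASP pool 28 of the 44 members were higher than in CON and 0 were lower. A member was called at a Benjamini-Hochberg adjusted p under 0.05 in limma over all genes tested together with a fold of 1.4 or more, and by the same rule 9.81% of all genes were higher and 8.13% lower. The median difference over the members was 1.16 on the log2 scale against -0.10 over all genes tested. In bulk tissue a change in the number of cells of a type and a change in RNA per cell cannot be told apart. Of the members, 8 (Cntn3, Cntn4, Cntn5, Cntn6, Nlgn1, Ntm, Pcdh11x and Pcdhb13) reached the minimum signal in ASP only, so that their place in the test already required a higher value there. Of the 34 members with a CON mean of 6 or more, 19 were higher in ASP, 0 were lower, and their median difference was 0.98. Among the 14975 genes with such a CON mean, the differences of these 34 lay mostly to the right of the bulk.

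**Figure D1:**
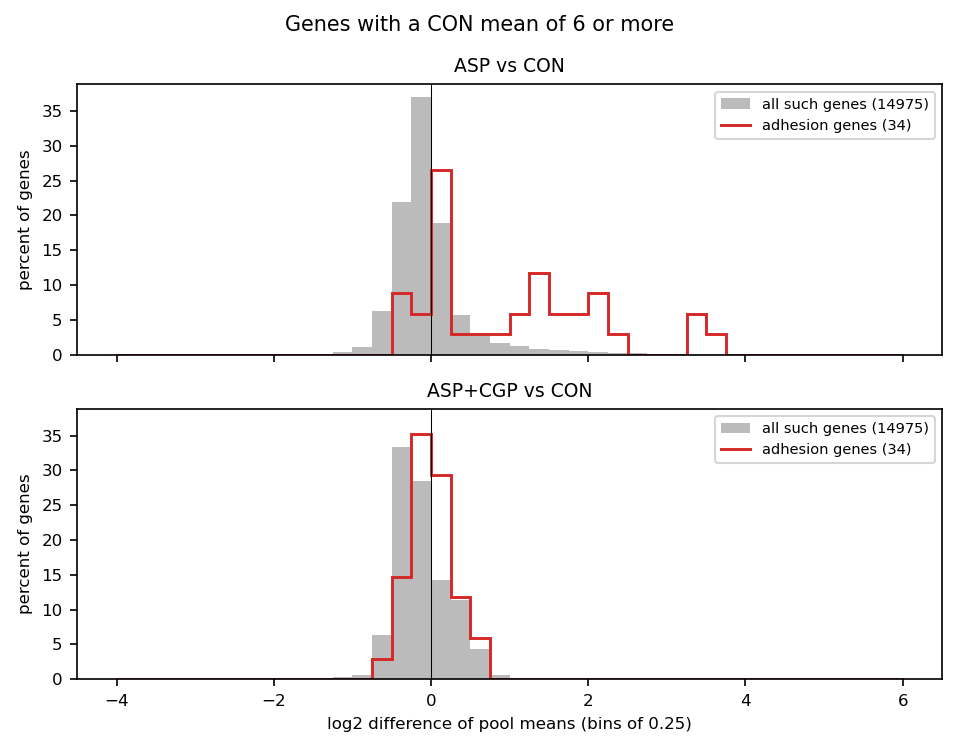
Share of genes, in percent, in bins of the log2 difference of pool means, for ASP against CON (upper) and ASP+CGP against CON (lower), limited to genes with a CON mean of 6 or more. Grey bars show the 14975 such genes and the red line the 34 adhesion genes among them; the red line extends to the right only in the upper panel.

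The members fell into families that behaved differently. Every tested neurexin (2 of 2), neuroligin (3 of 3), Lrrtm gene (4 of 4), contactin (6 of 6) and IgLON gene (3 of 3) was higher in ASP than in CON, as were 3 of 6 contactin-associated proteins and 7 of 11 non-clustered protocadherins. None of the 9 tested protocadherins of the beta cluster was called. The fold was over 8 for 4 members (Nrxn3, Ntm, Cntn1 and Opcml) and over 4 for 9, counting a member with a CON mean under 6 by its fold with that mean set to 6.

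**Figure D2:**
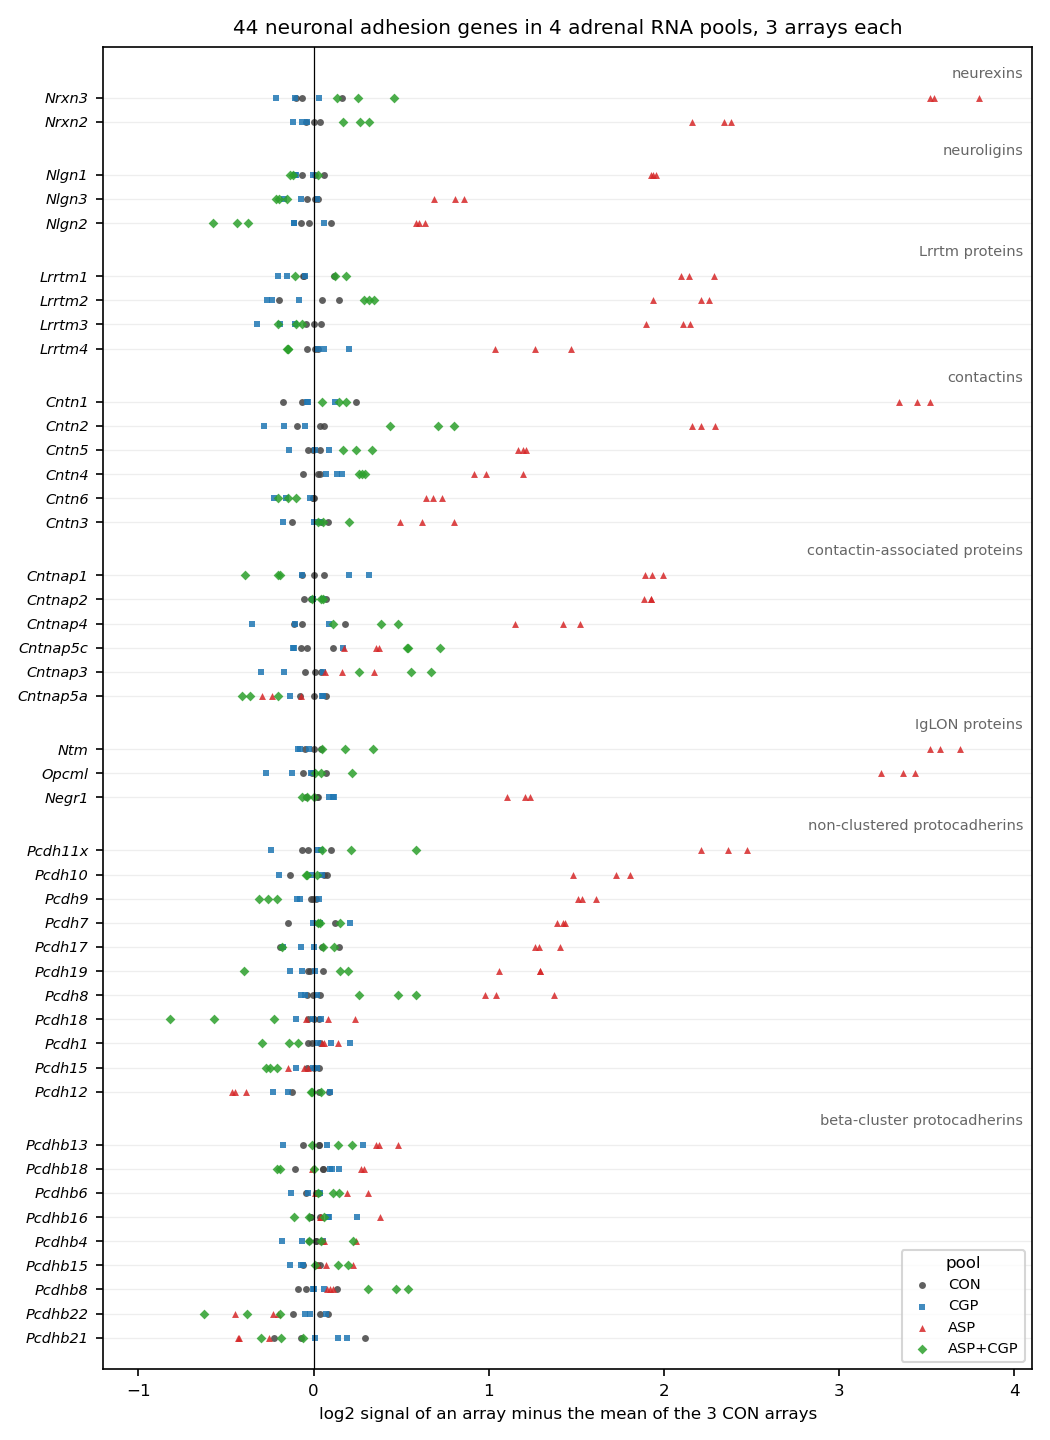
Log2 signal of each of the 12 arrays minus the mean of the 3 CON arrays (horizontal axis) for all 44 tested members, grouped by family and ordered within a family by the ASP difference. Red triangles (ASP) stand apart to the right for 28 members, up to a mean of 3.62 for Nrxn3, while the beta cluster stays near 0 in all pools.

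For the 4 members over 8-fold, the bases just before each start site listed by RefSeq are shown. These genes moved together, and all of them but Opcml have several starts that the gene-level signal cannot separate. Pcdh18, a protocadherin with little difference between ASP and CON, is shown beside them. Each line gives the 120 bases that end just before a start, read 5′ to 3′ on the strand of the gene in build GRCm38.p6. Capitals mark the letters of a GC box (GGGCGG on either strand), of a CCAAT box on either strand, or of a TATA box (here the letters TATAAA, again on both strands), and no marked motifs overlap.
Nrxn3 start at chr12:88794384-88794503, plus strand: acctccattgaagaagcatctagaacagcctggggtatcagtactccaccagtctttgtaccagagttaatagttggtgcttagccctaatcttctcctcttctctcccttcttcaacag
Nrxn3 start at chr12:88953270-88953389, plus strand: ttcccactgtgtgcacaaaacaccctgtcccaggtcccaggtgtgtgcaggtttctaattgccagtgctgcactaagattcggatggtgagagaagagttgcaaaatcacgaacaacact
Nrxn3 start at chr12:89812363-89812482, plus strand: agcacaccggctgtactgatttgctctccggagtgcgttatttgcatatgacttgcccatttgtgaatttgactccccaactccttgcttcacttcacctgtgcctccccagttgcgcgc
Ntm start at chr9:29412686-29412805, minus strand: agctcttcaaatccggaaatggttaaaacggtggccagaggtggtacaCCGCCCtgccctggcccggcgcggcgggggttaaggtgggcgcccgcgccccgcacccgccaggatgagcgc
Ntm start at chr9:29413453-29413572, minus strand: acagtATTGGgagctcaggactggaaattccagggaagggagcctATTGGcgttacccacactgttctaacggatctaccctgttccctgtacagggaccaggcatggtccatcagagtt
Opcml start at chr9:27791179-27791298, plus strand: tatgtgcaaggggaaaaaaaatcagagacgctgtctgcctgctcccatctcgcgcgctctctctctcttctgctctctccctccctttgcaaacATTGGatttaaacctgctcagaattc
Cntn1 start at chr15:92051045-92051164, plus strand: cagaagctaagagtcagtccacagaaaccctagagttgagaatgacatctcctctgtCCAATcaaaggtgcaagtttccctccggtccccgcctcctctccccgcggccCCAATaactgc
Cntn1 start at chr15:92128008-92128127, plus strand: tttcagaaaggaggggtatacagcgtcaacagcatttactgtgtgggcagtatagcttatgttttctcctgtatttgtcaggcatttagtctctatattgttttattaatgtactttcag
Cntn1 start at chr15:92161237-92161356, plus strand: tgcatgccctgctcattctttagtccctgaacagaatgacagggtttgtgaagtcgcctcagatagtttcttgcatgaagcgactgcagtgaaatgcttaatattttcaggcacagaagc
Pcdh18 start at chr3:49757317-49757436, minus strand: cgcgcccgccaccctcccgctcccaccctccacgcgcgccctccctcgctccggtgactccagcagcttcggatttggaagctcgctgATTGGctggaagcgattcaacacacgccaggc

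All 3 Nrxn3 stretches and 2 of the Cntn1 stretches were without a marked motif, whereas Ntm had a GC box before one start and a pair of CCAAT boxes before the other. Opcml and Pcdh18 each carried 1 CCAAT box. Whether these letters differ between members that rose and members that did not was not tested. Over whole promoters of 300 bases (250 before and 50 after the start), 37 promoters of 26 members were read. Of these promoters, 33 were of members higher in ASP. Members on chromosome 18 (the beta cluster, Lrrtm2, Pcdh1 and Pcdh12) were left out. A GC box was found in 32.4% of the 37 promoters against 35.7% of all 32851 RefSeq promoters, a CCAAT box in 48.6% against 37.4%, and a TATA box in 13.5% against 13.6%. A match is a description of letters and not of a bound site. The order of genes on the chromosomes was read as well. Opcml and Ntm are neighbours on chromosome 9 and Cntn6 and Cntn4 on chromosome 6, where Cntn3 and Cntn6 are separated by Chl1 alone. These genes were all called higher in ASP. On chromosome 3 Pcdh10 and Pcdh18 are separated by Pabpc4l alone, and only Pcdh10 was called higher. Pcdh9 lies beside Pcdh20, which entered no test, and the beta cluster lies side by side with none called. Lrrtm1, Lrrtm2 and Lrrtm3 each lie inside an alpha-catenin gene (Ctnna2, Ctnna1 and Ctnna3).

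Of the neurexins, the presynaptic members, Nrxn3 (probe set 10397575, Entrez 18191) had log2 signals of 6.12, 6.08 and 6.34 on the CON arrays and 9.70, 9.98 and 9.72 on the ASP arrays. The CGP arrays read 6.08, 5.97 and 6.21, and the ASP+CGP arrays 6.43, 6.31 and 6.64. Only the ASP arrays were high, and they lay clear of the other 9. The ASP signal was 12.3-fold that of CON (log2 difference 3.62 ± 0.10 SE, n = 3 arrays per pool, limma adjusted p = 4.86e-13). Nrxn2 (probe set 10460987, Entrez 18190), the second neurexin measured, read 7.92, 7.88 and 7.84 in CON and 10.04, 10.23 and 10.27 in ASP, a fold of 4.91. Its arrays in CGP (7.76 to 7.84) and ASP+CGP (8.05 to 8.20) again stayed close to CON.

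**Figure D3:**
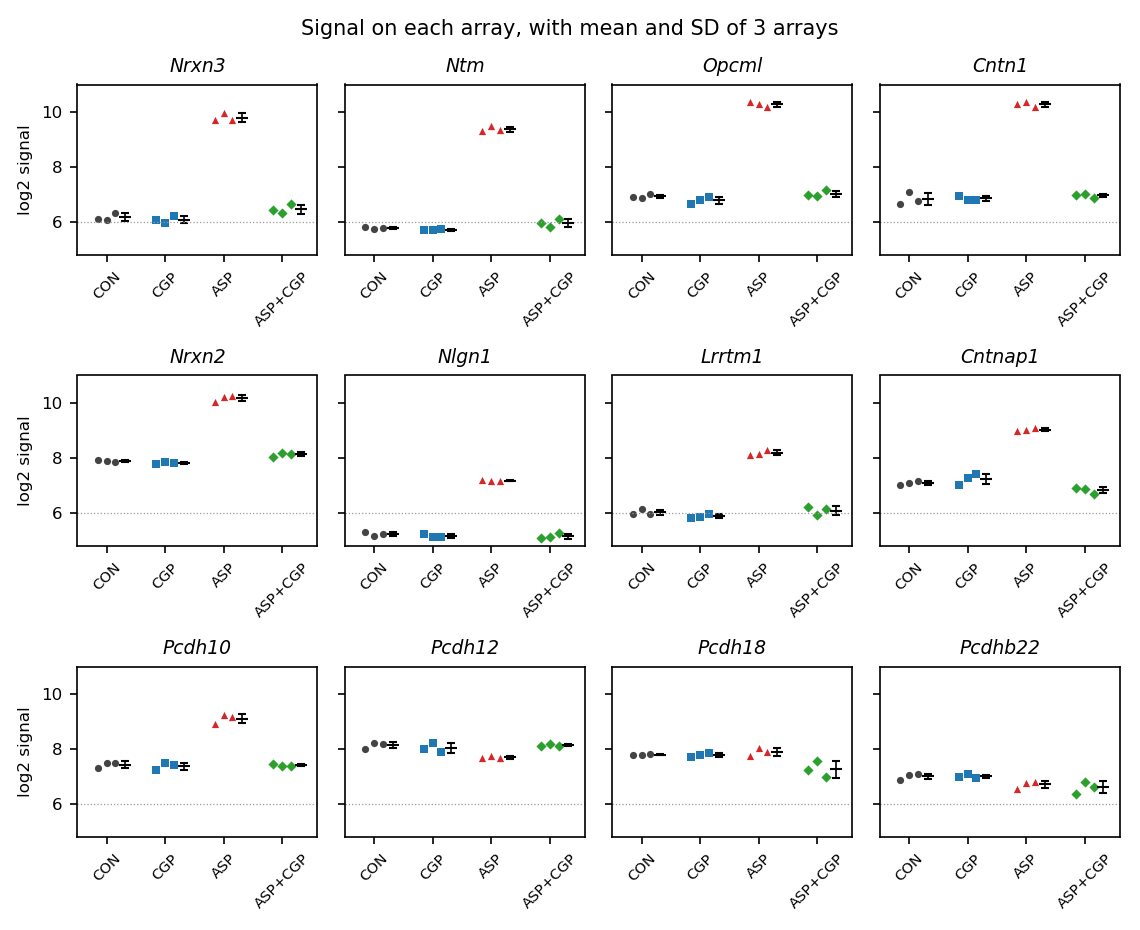
Log2 signal (vertical axis) on the 3 arrays of each pool for 12 members, with the mean and SD of 3 arrays as a bar to the right of the points and the minimum signal of 6 as a dotted line. The first 9 genes are high in ASP alone, whereas Pcdh12 is lowest in ASP, Pcdh18 is lowest in ASP+CGP and Pcdhb22 differs little; signals of different genes come from different probes and are not to be compared.

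The postsynaptic partners of neurexins rose as well, with fitted log2 differences of 0.61 to 1.94 for the neuroligins and 1.26 to 2.17 for the Lrrtm genes. Nlgn1 (probe set 10497505, Entrez 192167), a neuroligin of excitatory synapses, read 5.29, 5.16 and 5.24 in CON and 7.18, 7.17 and 7.16 in ASP. Since its CON signal was under the minimum, its fold is a bound, at least 2.25, with the CON mean set to 6. Nlgn2, the neuroligin of inhibitory synapses, was already well detected in CON (10.04, 10.09 and 10.21) and read 10.69, 10.71 and 10.75 in ASP, a fold of 1.52. For Nlgn3 the fold was 1.72, with CON arrays from 9.83 to 9.89 and ASP arrays from 10.55 to 10.73. All ASP arrays lay above all CON arrays for each of the 3 neuroligins, as they did for 20.6% of all genes tested.

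Lrrtm1 (probe set 10539169, Entrez 74342) encodes an excitatory postsynaptic organiser and read 5.96, 6.13 and 5.96 in CON against 8.11, 8.16 and 8.30 in ASP, a fold of 4.52. Of its relatives, Lrrtm2 rose at least 4.07-fold and Lrrtm3 rose 4.14-fold. The difference was smaller for Lrrtm4 (log2 1.26 ± 0.09 SE, 2.39-fold), whose 3 ASP arrays spread from 7.76 to 8.20. The standard errors of the Lrrtm genes ranged from 0.08 to 0.09, so the gap between Lrrtm4 and the other three was larger than these errors, although that gap itself was not tested.

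Contactins covered a wide range of fitted differences, from 3.44 down to 0.64 on the log2 scale. Cntn1 (probe set 10426397, Entrez 12805), which pairs with contactin-associated protein 1 at the edge of the node of Ranvier, read 6.66, 7.08 and 6.77 in CON and 10.28, 10.36 and 10.18 in ASP. That was a fold of 10.8 (log2 difference 3.44 ± 0.09 SE, limma adjusted p = 3.15e-13). Cntn2, the contactin of the zone beyond, rose from 6.62, 6.59 and 6.46 to 8.77, 8.71 and 8.85, a fold of 4.65. The remaining contactins were under the minimum in CON and only just above it in ASP, with folds of at least 1.62 for Cntn5, 1.31 for Cntn4, 1.16 for Cntn3 and 1.02 for Cntn6. Their fitted log2 differences were 1.19, 1.03, 0.64 and 0.68.

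Among the contactin-associated proteins, the partners of Cntn1 and Cntn2 moved with them. Cntnap1 (probe set 10381272, Entrez 53321) read 7.02, 7.09 and 7.15 in CON and 8.98, 9.02 and 9.08 in ASP, a fold of 3.84. Cntnap2, the partner of Cntn2, read 7.06, 7.02 and 7.14 in CON, and its ASP arrays averaged 8.99 ± 0.02 (SD, n = 3 arrays), a fold of 3.77. Also higher was Cntnap4, found mostly in interneurons, with a fold of 2.58. Cntnap3 (log2 difference 0.19 ± 0.11 SE), Cntnap5a (-0.20 ± 0.08) and Cntnap5c (0.30 ± 0.09) were not called. A second probe set of Cntnap5c, with a lower mean over the arrays, gave a difference of 0.58.

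The IgLON genes included a pair of neighbours with like changes. Ntm (neurotrimin, probe set 10591978, Entrez 235106) read 5.83, 5.74 and 5.79 in CON and 9.30, 9.47 and 9.36 in ASP, at least 10.4-fold higher. Opcml (probe set 10584024, Entrez 330908) had a CON mean of 6.93 ± 0.07 (SD, n = 3 arrays) and read 10.36, 10.30 and 10.17 in ASP, a fold of 10.2. Negr1, a neuronal growth regulator, began at 8.15, 8.22 and 8.21 and reached 9.30, 9.43 and 9.40, a fold of 2.27. CGP arrays of Ntm (5.69 to 5.76) and Opcml (6.66 to 6.92) stayed beside those of CON.

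Protocadherins divided in part by type, with 7 of 11 non-clustered ones called higher in ASP and 0 of 9 of the beta cluster. Of the non-clustered ones, Pcdh11x (probe set 10601569, Entrez 245578) read 5.22, 5.38 and 5.25 in CON and 7.49, 7.65 and 7.75 in ASP, at least 3.09-fold higher. The other non-clustered ones called higher had folds of 3.19 for Pcdh10, 2.93 for Pcdh9, 2.67 for Pcdh7, 2.49 for Pcdh17 and 2.32 for Pcdh19. For Pcdh8 the fold was at least 2.14. A second probe set of Pcdh9 gave a log2 difference of 1.84 beside the 1.55 of the one used. Pcdh19, whose human counterpart is known from an epilepsy, read 6.98, 7.05 and 6.97 in CON and 8.06, 8.29 and 8.29 in ASP.

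Of the non-clustered protocadherins that were not called, Pcdh12, Pcdh1 and Pcdh15 are known mainly from cell types other than neurons. Pcdh12, a protocadherin of blood vessel lining, read 8.01, 8.22 and 8.16 in CON and 7.66, 7.74 and 7.68 in ASP. Its difference of -0.43 ± 0.08 SE (limma adjusted p = 0.000298) was past the p threshold and under the fold minimum, and without the first CON array it was called lower. Of the 8 endothelial markers examined, 5 were lower in ASP as well (median difference -0.50), beside 8.13% of all genes. The part of these markers in the Pcdh12 value was not tested. In ASP+CGP 2 of the 8 endothelial markers were lower than in CON, beside 8.32% of all genes. Their median difference was -0.36 over the 8, whereas Pcdh12 differed from CON by 0.01 ± 0.08 SE. Pcdh1 (0.08 ± 0.07), an epithelial protocadherin, and Pcdh15 (-0.08 ± 0.06), a link of hair-cell bundles, differed by little more than their errors, and Pcdh18 did so too (0.09 ± 0.11). The probe sets of Pcdh15 disagreed, since the second one gave 0.33.

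Beta-cluster protocadherins, single-exon genes arrayed side by side, had fitted differences from -0.37 to 0.41 in ASP against CON with a median of 0.12. The 3 highest fitted values were those of Pcdhb13 (0.41 ± 0.09 SE), Pcdhb18 (0.18 ± 0.08) and Pcdhb6 (0.17 ± 0.07). The 3 lowest were those of Pcdhb21 (-0.37 ± 0.11), Pcdhb22 (-0.29 ± 0.10) and Pcdhb8 (0.09 ± 0.07). Pcdhb13 in CON and Pcdhb21 in ASP were under the minimum signal, so by their bounds Pcdhb13 was at least 1.01-fold higher and Pcdhb21 at least 1.13-fold lower, and their places in this order are not settled. Pcdhb22 read 6.89, 7.04 and 7.08 in CON and 6.56, 6.77 and 6.80 in ASP, so that its arrays separated by a small margin, and 43.0% of all genes tested likewise had every ASP array below every CON array. The genes of this cluster are close copies of each other, and signal of one on the probes of another cannot be told apart here.

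The comparison of CGP with CON asked what the early antagonist did by itself. No member was called (0 of 44 in either direction by limma, and 0 by the same linear model without moderation), where 1.62% of all genes were higher and 0.0189% lower. Differences ran from -0.20 (Lrrtm3) to 0.15 (Cntnap1), with a median of -0.05 over the members and 0.00 over all genes. At an unadjusted p under 0.05 there were 2 members, Lrrtm3 (-0.20 ± 0.08 SE) and Cntn6 (-0.13 ± 0.06), beside 1550 of the 15900 genes tested, and their limma adjusted p were 0.293 and 0.487. Lrrtm3 read 7.25, 7.30 and 7.33 in CON and 7.19, 7.10 and 6.97 in CGP.

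With both compounds the members were near CON again. In ASP+CGP against CON, 3 of 44 (6.82%) were higher and 1 (2.27%) was lower, and of all genes 6.09% were higher and 8.32% lower, so the share of members called higher was near that of all genes. Cntn2 was 1.57-fold higher, with a mean of 7.21 ± 0.19 (SD, n = 3 arrays) against arrays of 6.62, 6.59 and 6.46 in CON. Cntnap5c and Cntnap3 were 1.51-fold and 1.41-fold higher, and Pcdh18 read 7.23, 7.57 and 6.98 against 7.77, 7.80 and 7.83, a log2 difference of -0.54 ± 0.11 SE. The calls of Cntnap3 and Cntnap5c were lost when both probe sets of a gene were averaged or the arrays were rescaled by cyclic loess, and that of Pcdh18 was lost with either rescaling of the arrays and without the third ASP+CGP array. Leaving out the first or the third ASP+CGP array or the third CON array also ended the call of Cntnap3.

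The ASP+CGP arrays stood apart in their spread, which touches these calls. Their interquartile range of signals was 2.20 to 2.29, against 2.58 to 2.62 in CON. Dim genes read higher on them and bright genes lower: the median difference from CON was 0.25 over the 3173 genes with a CON signal of 6 to 7 and -0.26 over the 3448 genes of 8 to 9. Of the members, 19 lie in the dimmer of these bands, among them Cntn2, Cntnap3 and Cntnap5c. In the same band the ASP pool differed from CON by a median of -0.01.

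Set against ASP, the ASP+CGP pool was lower for 29 of 44 members and higher for 0, while 13.3% of all genes were lower and 6.55% higher. The 29 were all 28 that had risen in ASP together with Pcdh18. Nrxn3 fell by 3.34 on the log2 scale, Opcml fell by 3.25 and Cntn1 fell by 3.31, while Ntm, with an ASP+CGP mean just under 6, was at least 10.4-fold lower. Of the 29, 7 are members that entered the test through ASP alone, and of the 34 members with a CON mean of 6 or more 20 were lower. This comparison shares its ASP arrays with the first one, so it adds no further observation of the ASP level.

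The 4 pools also allow a comparison of the aspartame difference without and with the antagonist, from arrays that the 2 differences do not share. Each group was 1 pool, so an effect of the antagonist on this difference cannot be told apart from other differences between pools. The interaction is the difference of ASP+CGP and CGP minus the difference of ASP and CON. It contains the same difference by which the 28 risers were called, so it adds no further observation of the ASP level. It was negative for 29 members and positive for 1, beside 15.5% and 9.02% of all genes. Again 7 of the 29 entered the test through ASP alone, and of the 34 members with a CON mean of 6 or more 20 had a negative interaction. Nrxn3 had an aspartame difference of 3.62 without the antagonist and 0.38 with it, an interaction of -3.24 ± 0.14 SE (limma adjusted p = 1.87e-10). The fitted values were 3.59 and 0.25 for Ntm, 3.44 and 0.11 for Cntn1, and 3.34 and 0.22 for Opcml. Cntn2 kept the largest difference among the 28 risers in the presence of the antagonist, 0.82, against 2.22 without it. Nlgn2 and Cntnap1 had negative values with the antagonist, -0.41 each, against 0.61 and 1.94 without it. Pcdh12 was the single positive interaction (0.53 ± 0.11 SE), with -0.43 without the antagonist and 0.10 with it.

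**Figure D4:**
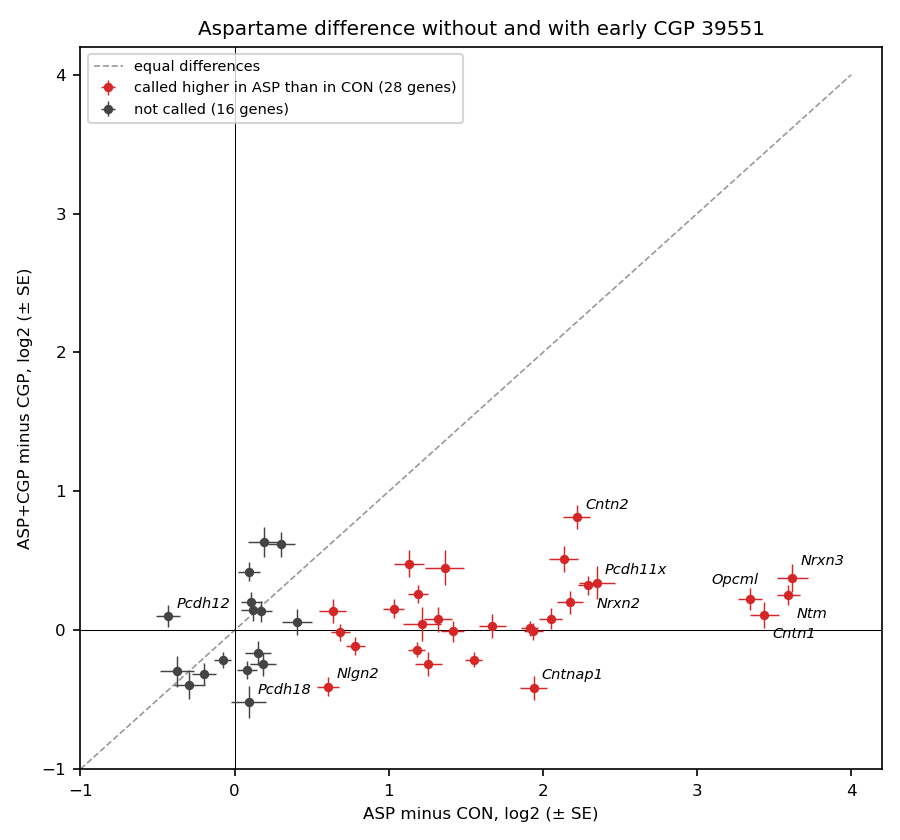
Aspartame difference in log2 signal without CGP 39551 (ASP minus CON, horizontal axis) and with it (ASP+CGP minus CGP, vertical axis) for the 44 tested members, with standard errors of the limma fit. The 28 genes called higher in ASP (red) extend to 3.62 along the horizontal axis and lie between -0.41 and 0.82 on the vertical axis, below the dashed line of equal differences.

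Other genes of the same protein partnerships moved like the members. Of 41 further synaptic adhesion genes tested, 31 were higher in ASP than in CON and 0 lower, with a median difference of 1.06. By the same rule 9.81% of all genes were higher and 8.13% lower. Among them were Grid1 (2.61), the receptor that cerebellins tie to neurexins, Cadm3 (2.59), a synaptic cell adhesion molecule, and Adgrl3 (2.45), a latrophilin. Slitrk3, a postsynaptic organiser with a CON mean under 6, was at least 4.74-fold higher. In the L1 and NCAM group of axonal adhesion molecules 8 of 9 were higher (median 1.54), among them Dscam (2.89), Nfasc (1.79) and Nrcam (1.67). Ncam2, with a CON mean under 6, was at least 1.75-fold higher. Nfasc is the glial and axonal partner of Cntn1 and Cntnap1.

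Scaffolds and channels tied to neurexins, neuroligins or contactin-associated proteins were less uniform, with 9 of 18 higher, 0 lower and a median of 0.60. Of all genes 9.81% were higher and 8.13% lower in ASP. Shank1 (2.36), a postsynaptic scaffold, Apba2 (2.33) and Apba1 (2.01), presynaptic adaptors of neurexins, and Kcna2 (2.14), the potassium channel that gathers with Cntn2 and Cntnap2, had the largest differences. In ASP+CGP the numbers called against CON were 4 higher and 2 lower of the 41, 0 of the 9, and 1 higher and 3 lower of the 18. Of all genes 6.09% were higher and 8.32% lower in that comparison. In CGP 0 genes were called in each of these lists, where 1.62% of all genes were higher and 0.0189% lower.

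Markers of nervous tissue moved with the members. In ASP all 12 general neuron markers were higher than in CON (median 1.92), as were 6 of 6 markers of central neurons (2.82), 9 of 9 of oligodendrocytes (2.84) and 8 of 8 of astrocytes (2.18). By the same rule 9.81% of all genes were higher in ASP. Nefl, a neurofilament, differed by 4.21, Camk2a, a kinase of forebrain neurons, by 4.30 and Mobp, a protein of central myelin, by 4.15. Of the astrocyte markers, Slc6a11, a GABA transporter, differed by 5.48 and Slc1a2, a glutamate transporter, by 3.64. In CGP against CON 1 of the 8 astrocyte markers was higher, Slc1a2 (0.50), and 0 of the other 3 lists, where 1.62% of all genes were higher. The summed linear signal of the central neuron markers was 407 to 441 on the CON arrays, 405 to 433 on the CGP arrays, 3600 to 4006 on the ASP arrays and 495 to 529 on the ASP+CGP arrays. For oligodendrocytes it was 1985 to 2052 in CON, 1909 to 1981 in CGP, 10053 to 10958 in ASP and 1983 to 2004 in ASP+CGP. For astrocytes the same ranges were 2279 to 2345, 2321 to 2515, 13740 to 14508 and 1999 to 2072, and for general neuron markers 5419 to 5692, 5387 to 5617, 21475 to 22349 and 4926 to 5456. In CON the markers Nefm, Gad2, Grin2b, Slc17a6, Ermn, Opalin and Aqp4 were under 6, and in ASP none of these lists had a marker under 6. The study prepared hypothalamic RNA beside the adrenal RNA, and the part of these cell types in the adhesion genes' differences was not tested.

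Adrenal markers were present in every pool. None of the 9 chromaffin markers (among them Th, Dbh and Pnmt) or of the 9 cortex markers (among them Star and Cyp11b1) had a mean under 6. For the counts that follow, 9.81% of all genes were higher and 8.13% lower in ASP than in CON. Chromaffin markers were lower in ASP for 3 of 9 (Gata3 -0.91, Slc18a1 -0.74 and Phox2a -0.71) and higher for 0, with a median of -0.42 and a summed signal of 35390 to 36075 against 45361 to 46143 in CON, 42712 to 43695 in CGP and 41578 to 43359 in ASP+CGP. Cortex markers were lower for 2 of 9 (Cyp11b2 -0.67 and Nr5a1 -0.53) and higher for 0, with a summed signal of 72953 to 75124 against 83530 to 84941 in CON, 79859 to 83448 in CGP and 80071 to 82621 in ASP+CGP. Schwann cell markers, those of peripheral glia, were called for 0 of 4 (median -0.34) and fibroblast markers were lower for 1 of 6. Liver markers also differed between the pools, with 6 of 8 lower in ASP, 8 of 8 lower in ASP+CGP and 5 of 8 higher in CGP, so their order over the pools was not that of the adhesion genes. Of all genes 8.32% were lower in ASP+CGP than in CON and 1.62% were higher in CGP.

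**Figure D5:**
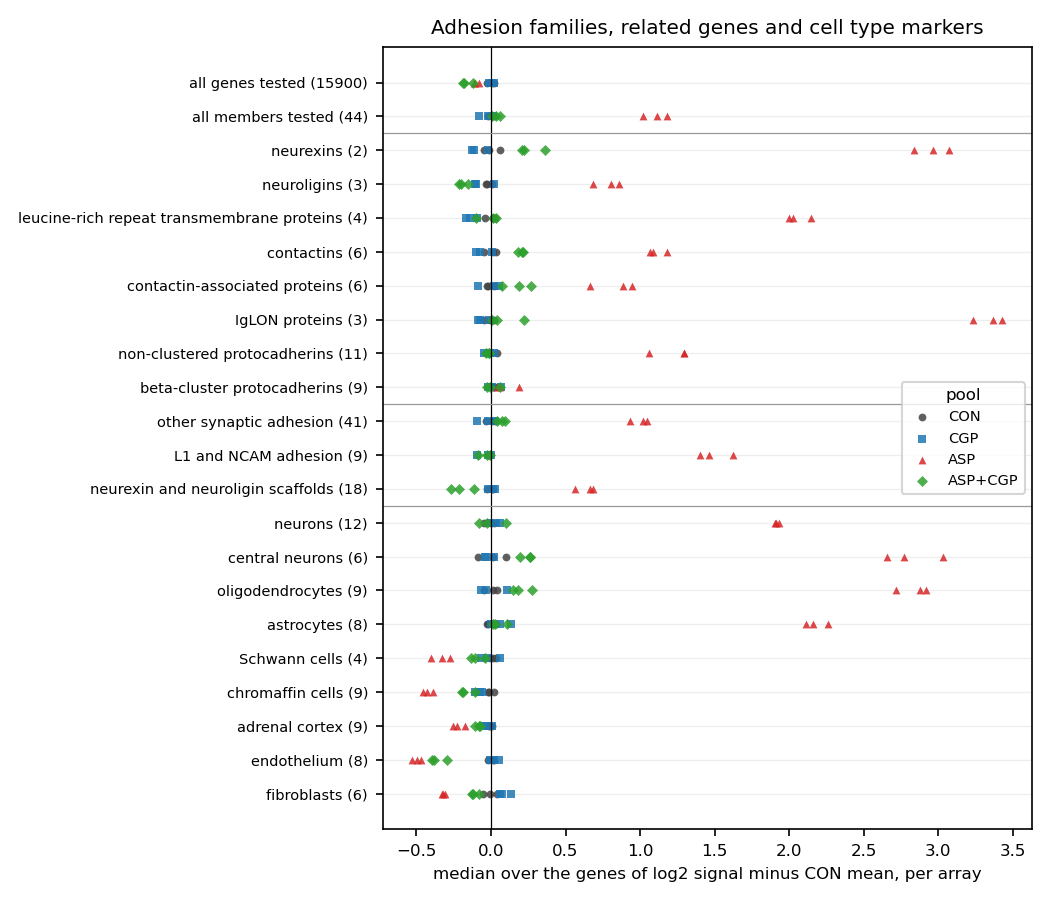
Median over the genes of a list of the log2 signal minus the CON mean (horizontal axis), for each of the 12 arrays, with the number of genes in parentheses. The 3 ASP arrays (red triangles) lie between 1.02 and 1.18 for the members, near 0 for the beta cluster, between 1.91 and 3.03 for the neuron, central neuron, oligodendrocyte and astrocyte markers, and below 0 for the Schwann, chromaffin, cortex, endothelium and fibroblast markers.

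The level of all genes shifted a little with the scaling of the arrays. In the deposited values the median of all genes was -0.10 in ASP and -0.17 in ASP+CGP against CON, and after cyclic loess it was 0.01 and -0.01. Of the genes called in ASP against CON, 54.7% were higher in the deposited values and 80.1% after cyclic loess. In ASP+CGP against CON the share was 42.3%, against 57.6% after cyclic loess and 70.1% after centring on medians. For the members, 28 were higher in ASP after centring and 29 after cyclic loess, and 0 were lower under either.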

How the data were processed

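The authors hybridised 12 Affymetrix Mouse Gene 1.0 ST arrays, 3 for each of 4 pools of adrenal RNA, and deposited log2 signals per probe set made with RMA (background correction, quantile normalization, median polish) in Partek, the tools named in the submitters' notes without a version. These deposited log2 signals cover 26533 probe sets. The platform annotation gives a single symbol for 17710 of them, several symbols for 1077 and no symbol for 7746. The number of arrays limits the precision, since arrays have no read depth.

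Where several single-symbol probe sets named a gene, the one brightest on average across the arrays stood for it (16244 genes), and genes with a mean under 6 in every pool were left out. A mean per pool was fitted to all arrays in limma 3.58.1 (R 4.3.3, with data.table, version 1.17.8) with empirical Bayes moderation, and p-values were adjusted by Benjamini-Hochberg within each of 5 contrasts over the 15900 genes tested. Tables and plots were made in Python 3.11.15 with pandas 2.3.3, numpy 2.4.6 and matplotlib 3.10.9. A call needed an adjusted p under 0.05 and a fold of 1.4 or more. Where a pool's mean was under 6, the fold is a bound with that mean set to 6. The fit was tested on simulated data.

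Named in the text are all tested members except those of the beta cluster, of which the 3 highest and 3 lowest in ASP against CON are given, and of each other list up to 4 genes and of each marker list up to 3 with the largest absolute ASP difference, besides defining markers. The members and the lists were chosen with earlier results of these data known. Promoter sequences are RefSeq's (build GRCm38.p6). With members on chromosome 18 left out, they covered 26 of the 46 members by symbol. Alternatives were other filters on dim genes, array scalings, moderations, arrays in the fit, probe set rules and fold minimums, the replicate number as a block, and each array left out in turn.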

Additional observations from a re-analysis of the deposited data

Results flagged for a closer look

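The difference of ASP and CON was unlike that of ASP+CGP and CGP for 30 members, by the interaction test of limma (adjusted p under 0.05 and a size of at least 1.4-fold). Each group was 1 pool, so effects of the compounds cannot be told apart from other differences between the pools. The values below are interactions on the log2 scale, with the 28 members that had risen in ASP all negative. An interaction contains the difference of ASP and CON by which these 28 were called. The values are therefore not separate from that call. All are fitted values, also where a pool's mean was under 6. Among neurexins they were -3.24 for Nrxn3 and -1.97 for Nrxn2, and among neuroligins -1.95 for Nlgn1, -1.01 for Nlgn2 and -0.90 for Nlgn3. The Lrrtm genes gave -1.97 for Lrrtm1, -1.62 for Lrrtm2, -1.97 for Lrrtm3 and -1.50 for Lrrtm4. Contactins gave -3.33 for Cntn1, -1.40 for Cntn2, -0.50 for Cntn3, -0.88 for Cntn4, -0.93 for Cntn5 and -0.70 for Cntn6. Their associated proteins gave -2.35 for Cntnap1, -1.90 for Cntnap2 and -0.92 for Cntnap4. IgLON genes gave -3.34 for Ntm, -3.12 for Opcml and -1.32 for Negr1.

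Protocadherins gave -1.64 for Pcdh10, -2.01 for Pcdh11x, -1.24 for Pcdh17, -1.17 for Pcdh19, -1.42 for Pcdh7, -0.65 for Pcdh8 and -1.76 for Pcdh9. Pcdh18 (-0.61) and Pcdh12 (0.53) differed in this way without having been called in ASP against CON. The call of Pcdh18 was lost without the third ASP+CGP array and that of Pcdh12 without the third CGP array. Cntn3, under the minimum signal in every pool but ASP, lost its interaction call when the arrays were centred on their medians and on leaving out any of 6 single arrays.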

How the results depend on the processing

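The counts of members higher in ASP than in CON (28), lower in ASP+CGP than in ASP (29) and with a negative interaction (29) stayed within 1.5 times under every alternative run, at 24 to 30, 24 to 33 and 25 to 35. In CGP against CON 0 members were called in all of them. Small counts moved. Without a fold minimum, 4 members were lower in ASP than in CON, 13 were higher and 10 lower in ASP+CGP than in CON, 4 exceeded their ASP level in ASP+CGP, and 4 had a positive interaction. By the same rule 5987 of all 15900 genes were lower in ASP, and 3541 were higher and 8015 lower in ASP+CGP than in CON. Above their ASP level in ASP+CGP were 4768 genes, and 3487 had a positive interaction. With a minimum of 1.8, 0 members were higher or lower in ASP+CGP than in CON and 0 had a positive interaction. Of all genes 47 were higher and 144 lower in ASP+CGP, and 127 had a positive interaction. With arrays centred on their medians the count of members higher in ASP+CGP than in CON was 5 and the count lower 0. With that scaling 1 member was higher in ASP+CGP than in ASP and 2 had positive interactions. Over the 15993 genes tested there, these counts were 1552, 661, 1449 and 1929. After cyclic loess 1 member was higher in ASP+CGP than in CON, and with all probe sets averaged 1 was, with 2 positive interactions. Over all genes 679 of 15816 were higher after cyclic loess. With probe sets averaged 942 of 15900 were, with 1417 positive interactions. Leaving out each array in turn gave 0 to 1 members lower in ASP than in CON, 2 to 5 higher and 0 to 3 lower in ASP+CGP than in CON, and 1 to 2 positive interactions. The count of 5 came without the second ASP+CGP array, as did the 3 lower and 2 positive interactions. Without that array 1414 of 15966 genes were higher, 1919 were lower and 1755 had a positive interaction. Without the third ASP+CGP array 0 members were lower than in CON, beside 1107 of 15887 genes. Without the first CON array 2 members were, beside 1619 of 15905 genes. Without the third ASP array 2 members had positive interactions, beside 1724 of 15906 genes. The causes were not tested. No single member changed direction while called.

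With the replicate number as a block, 28 members were higher in ASP, 29 were lower in ASP+CGP than in ASP and 29 interactions were negative, the same counts as without it. Same-numbered arrays of different pools had deviations that correlated at -0.15 to 0.38 (median 0.08), with 8 of 18 pairs over 0.1. Differently numbered arrays correlated at -0.38 to 0.28 (median -0.07), with 9 of 36 pairs over 0.1. Not every same-numbered pair passed 0.1 and no label ties a number to a shared batch, so the number was not taken as a pairing.

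Over all genes, cyclic loess took the number lower in ASP from 1292 to 481 and lower in ASP+CGP from 1323 to 500, while centring on medians gave 661 lower and 1552 higher in ASP+CGP against 969 higher in the deposited values. Pools of RNA with 3 arrays limit every value to these pools, and signals under 6 limit the folds of the 10 members that are that dim in CON.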
